A study of Mus musculus with 6 samples.

Results

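The insulin-like growth factor (IGF) system was described by its 2 ligand genes, Igf1 and Igf2, its 2 receptor genes, Igf1r and Igf2r, and the 6 genes of the IGF binding proteins, Igfbp1 to Igfbp6. Its members were the array features whose platform annotation gave exactly 1 gene symbol, that symbol being one of these 10. They came to 20 features, all with a value, of 41230 features with a value on the array.

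The cells were MMH cells (Met murine hepatocytes), an immortalised mouse liver cell line whose sample titles carry the mark ED14. MMH cells that carried Prox1, a homeobox transcription factor of liver and lymphatic development, were set against MMH cells with the empty vector pCDNA3.1 on the same 2-colour arrays. Both RNAs thus come from the same line and both carry a vector, and whether either is 1 clone or a pool is not given in the sources used here. Prox1 RNA was labelled with Cy5 on 3 arrays and with Cy3 on the other 3, but the columns of replicates 4 to 6 were identical in every feature and were counted once, which left 4 distinct profiles: the 3 Cy5 arrays and the Cy3 profile, each named for the dye of the Prox1 RNA. Each value is a log-like ratio of both RNAs, scaled by the authors to a standard deviation (SD) of 1 over the features of an array. It is a difference between the cells in SD units, neither a level nor a fold change. Levels therefore cannot be ordered between genes, and the presence of a transcript or of a cell type's markers cannot be checked. Positive values likely mean higher with Prox1, since a Prox1 feature had the effect 5.89 ± 0.36 SD units (SE, 4 profiles), although the labels do not state the direction and the other 2 Prox1 features stood at 0.09 and −0.16.

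IGF1 and IGF2 are secreted peptides that act through the IGF1 receptor, a tyrosine kinase that drives growth and survival. The IGF2 receptor, which is also the cation-independent mannose 6-phosphate receptor, takes IGF2 into lysosomes and carries lysosomal enzymes there. The binding proteins hold IGFs in blood and tissue and limit or prolong their access to the receptor. The liver is the main source of circulating IGF1 after birth, and in the fetal liver Igf2 is the prominent ligand gene.

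Igf1r was higher with Prox1, and Igf2r, Igfbp2, Igfbp3, Igfbp4 and Igfbp6 were lower, each in at least 1 feature. Neither ligand gene, nor Igfbp1 or Igfbp5, passed the test in any feature. Of the 20 features 2 rose and 5 fell at an adjusted p of 0.05 in limma with the dye orientation as a random block, adjusted over all 41230 features. In the same fit 3.08% of all features were higher and 4.58% lower. These calls depend on the error model. With both orientations as 2 replicates 0 member features passed in limma. In that fit 8 member features had an unadjusted p under 0.05, as had 5498 of all 41230 features. Each fit that left out 1 Cy5 array called 1 feature higher (Igf1r 30248) and 2 lower (Igf2r and Igfbp3 19040). Each of the 7 features that passed with the random block had 1 sign throughout the 4 profiles. The median effect over the 20 features was −0.10 SD units, against 0.04 over all features, and the median absolute effect was 0.40 against 0.28. Members carry exactly 1 symbol, and not all features do. Over the 31700 features with exactly 1 symbol these medians were 0.03 and 0.31, and 1078 features were higher and 1647 lower. The labels do not tie the arrays to separate cultures, so the p-values reflect spread among arrays and this may be technical. In bulk RNA from a culture, fewer cells that express a gene and less of its RNA per cell cannot be told apart.

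Upstream sequences are shown for the 3 genes with a feature that passed in every fit that left out a Cy5 array, Igf1r, Igf2r and Igfbp3. Each is the run of 250 bases before the gene's start in the RefSeq promoter table (GRCm38.p6), which has entries for all 10 genes. For Igfbp3 that window lies inside the gene's annotated span (chr11:7206086-7215498), whose own start is further upstream. The windows of Igf1 and Igfbp4, not printed, also lie inside the annotated spans. Capitals mark matches, on either strand, to the GC box GGGCGG, to TATANA and to the E-box CACGTG. These motifs were chosen with the sequences in view.
Igf1r, chr7:67952007-67952256, plus strand: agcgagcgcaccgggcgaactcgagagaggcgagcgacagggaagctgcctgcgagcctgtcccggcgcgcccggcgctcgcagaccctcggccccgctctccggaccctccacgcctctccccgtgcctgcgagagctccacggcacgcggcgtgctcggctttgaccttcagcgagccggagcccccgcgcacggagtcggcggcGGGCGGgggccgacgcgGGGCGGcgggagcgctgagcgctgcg
Igf2r, chr17:12769707-12769956, minus strand: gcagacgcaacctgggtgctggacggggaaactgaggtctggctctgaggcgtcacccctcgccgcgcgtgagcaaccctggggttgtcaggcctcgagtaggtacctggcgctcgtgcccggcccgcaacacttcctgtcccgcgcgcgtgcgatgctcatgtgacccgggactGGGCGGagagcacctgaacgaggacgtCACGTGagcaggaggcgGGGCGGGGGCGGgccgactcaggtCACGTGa
Igfbp3, chr11:7213924-7214173, minus strand: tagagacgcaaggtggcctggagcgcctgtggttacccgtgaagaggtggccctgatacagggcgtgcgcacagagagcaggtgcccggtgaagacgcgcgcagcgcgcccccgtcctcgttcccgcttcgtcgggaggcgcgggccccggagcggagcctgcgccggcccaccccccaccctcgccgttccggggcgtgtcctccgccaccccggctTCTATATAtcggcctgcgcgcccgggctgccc

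The Igf1r window was 77.6% G and C and held 2 GC boxes. The Igf2r window was 69.2% G and C and held 3 GC boxes and 2 E-boxes. The Igfbp3 window was 73.2% G and C and held 2 overlapping TATANA matches in the run TCTATATA. Over the 32851 windows of the table the median was 52.4% G and C, and 32.7% held a GC box, 22.6% a TATANA match and 6.02% an E-box. Of the windows not printed, that of Igfbp2 (1 of its 2 starts in the table) held 3 GC boxes and 1 E-box, that of Igfbp4 1 TATANA match and that of Igfbp6 2, and those of Igf1, Igf2 (1 of its 4 starts), Igfbp1 and Igfbp5 held none of the motifs. A match is a description of letters, and no binding was measured.

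**Figure D1:**
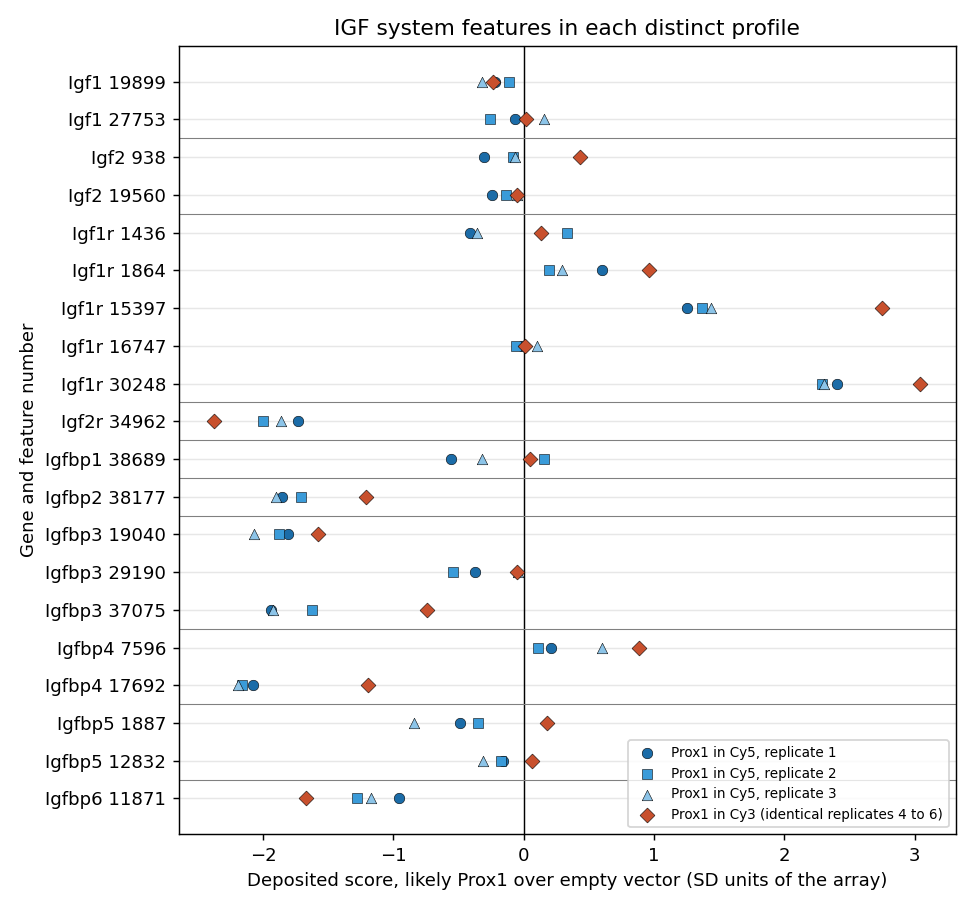
Deposited score of each of the 20 IGF system features (rows, by gene and feature number) in each of the 4 distinct profiles, on the horizontal axis in SD units of the array. Both passing Igf1r features lie right of 0 in all profiles, and Igf2r, Igfbp2, Igfbp6 and the passing features of Igfbp3 and Igfbp4 lie left of 0 in all profiles.

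The receptors moved in opposite directions. For Igf1r, the feature annotated to the RefSeq transcript (30248) scored 2.40, 2.29 and 2.31 on the Cy5 arrays and 3.04 in the Cy3 profile. Every profile was high, and the Cy3 profile was the highest. The effect was 2.66 ± 0.26 SD units (SE, 4 profiles; limma adjusted p = 0.0036), which ranked 124 from the top. The difference between orientations, −0.71 as Cy5 minus Cy3, also passed (limma adjusted p = 0.018).

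A second Igf1r feature (15397, annotated to a cDNA record) scored 1.25, 1.37 and 1.43 on the Cy5 arrays and 2.75 in the Cy3 profile. Its effect was 2.0 ± 0.36 (SE; limma adjusted p = 0.025), and its Cy3 score was about as far above the Cy5 arrays as they were above 0. It did not pass in any fit that left out 1 Cy5 array (limma adjusted p between 0.064 and 0.080). The difference between orientations, −1.40 as Cy5 minus Cy3, itself passed (limma adjusted p = 0.0024). The remaining 3 Igf1r features, also annotated to cDNA records, did not pass. Feature 1864 scored 0.20 to 0.60 on the Cy5 arrays and 0.96 in the Cy3 profile, all above 0 (effect 0.64, 95% interval −0.08 to 1.36). Features 1436 and 16747 had effects of −0.02 and 0.01, and profiles of both signs. The gene mean over its 5 features, at 1.06 ± 0.22 (SE; limma adjusted p = 0.039), thus averages features that range between −0.02 and 2.66.

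Igf2r had 1 feature (34962). It scored −1.74, −2.00 and −1.86 on the Cy5 arrays and −2.38 in the Cy3 profile. All 4 profiles were low, with an effect of −2.10 ± 0.26 SD units (SE; limma adjusted p = 0.0076), rank 924 from the bottom. The test of the difference between orientations gave an adjusted p of 0.071 in limma, for scores that differed by 0.51.

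Of the 4 ligand features 0 passed in limma, 0 had an unadjusted p under 0.05 and 0 passed with a dye term. The RefSeq feature of Igf1 (19899) scored −0.22, −0.12 and −0.32 on the Cy5 arrays and −0.24 in the Cy3 profile, with an effect of −0.23 and a 95% interval of −0.77 to 0.32. The sign was the same in every profile, but an effect of 0 lies within that interval. The other Igf1 feature (27753) had an effect of −0.02 (95% interval −0.68 to 0.63) and profiles of both signs.

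Both Igf2 features are annotated to the same RefSeq transcript. Feature 19560 scored −0.24, −0.14 and −0.05 on the Cy5 arrays and −0.05 in the Cy3 profile (effect −0.10, 95% interval −0.64 to 0.44). Feature 938 scored −0.30, −0.08 and −0.07 on the Cy5 arrays, but 0.43 in the Cy3 profile (effect 0.12, 95% interval −0.52 to 0.76). The orientations thus disagreed in sign in 1 of the Igf2 features. The intervals of the 4 ligand features lie between −0.77 and 0.76 SD units, and the effects of the passing receptor features are outside them. With scores that are ratios only, a gene at its background on both sides of the array would also stand near 0, and signal intensities were not analysed here.

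Of the 10 binding protein features 4 fell, from 4 of the 6 genes, and 0 rose. Over all features 4.58% fell and 3.08% rose. Among all 19087 genes with a symbol, 1418 had a feature that fell and 930 had a feature that rose. Igfbp3 encodes the main carrier of IGFs in adult blood, where it joins IGF and the acid-labile subunit. Its feature 19040 scored −1.81, −1.88 and −2.07 on the Cy5 arrays and −1.58 in the Cy3 profile, low in all profiles, with an effect of −1.76 ± 0.25 SD units (SE; limma adjusted p = 0.012). The RefSeq feature of the same gene (37075) scored −1.94, −1.62 and −1.93 on the Cy5 arrays and only −0.74 in the Cy3 profile. It did not pass (effect −1.33, 95% interval −2.14 to −0.51; limma adjusted p = 0.072), and its orientations differed (limma adjusted p = 0.0086). The third feature (29190) stood at −0.19 (95% interval −0.93 to 0.54). The gene mean was −1.09 ± 0.22 (SE; limma adjusted p = 0.033).

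Igfbp2 encodes a binding protein that is abundant in fetal life. Its 1 feature (38177) scored −1.86, −1.71 and −1.90 on the Cy5 arrays and −1.21 in the Cy3 profile, with an effect of −1.54 ± 0.25 SD units (SE; limma adjusted p = 0.020). All profiles were low, the Cy3 profile least so, and the difference between orientations of −0.61 passed (limma adjusted p = 0.034). Igfbp2 did not pass without any 1 of the Cy5 arrays (limma adjusted p between 0.055 and 0.063).

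Igfbp6 encodes a binding protein that prefers IGF2 over IGF1. Its 1 feature (11871) scored −0.96, −1.28 and −1.17 on the Cy5 arrays and −1.67 in the Cy3 profile, with an effect of −1.38 ± 0.27 SD units (SE; limma adjusted p = 0.034). Here the Cy3 profile was the lowest, and the test of the orientations gave a limma adjusted p of 0.075. Without any 1 of the Cy5 arrays Igfbp6 did not pass (limma adjusted p between 0.059 and 0.093).

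Igfbp4, whose product is best known for restraining IGF action until the protease PAPP-A cuts it, gave different answers from 2 features annotated to the same RefSeq transcript. Feature 17692 scored −2.07, −2.16 and −2.19 on the Cy5 arrays and −1.19 in the Cy3 profile, with an effect of −1.70 ± 0.28 SD units (SE; limma adjusted p = 0.021). Feature 7596 scored 0.21, 0.11 and 0.60 on the Cy5 arrays and 0.88 in the Cy3 profile, above 0 in all profiles, and did not pass (effect 0.57, 95% interval −0.21 to 1.36). The profiles of the 2 features did not overlap, and the intervals of their effects exclude each other. The gene mean was −0.57 and did not pass (limma adjusted p = 0.31), so a fall of Igfbp4 rests on 1 feature, which did not pass without any 1 of the Cy5 arrays (limma adjusted p between 0.063 and 0.066).

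Igfbp1, an insulin-sensitive gene of the liver, scored between −0.55 and 0.15 on the Cy5 arrays and 0.05 in the Cy3 profile (effect −0.10, 95% interval −1.01 to 0.80). Igfbp5, which encodes a binding protein that attaches to extracellular matrix, had features at −0.22 (1887; 95% interval −1.03 to 0.59) and −0.09 (12832; 95% interval −0.63 to 0.46). Both were below 0 on the 3 Cy5 arrays, at −0.84 to −0.35 and −0.31 to −0.16, and above 0 in the Cy3 profile, at 0.18 and 0.06. In the mouse annotation Igfbp1 and Igfbp3 are neighbours on chromosome 11, and Igfbp2 and Igfbp5 on chromosome 1, with 0 protein-coding genes between the members of each pair. In each pair 1 gene had a feature that fell (Igfbp3, Igfbp2) and the other (Igfbp1, Igfbp5) had none that passed. The difference within a pair was not tested.

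**Figure D2:**
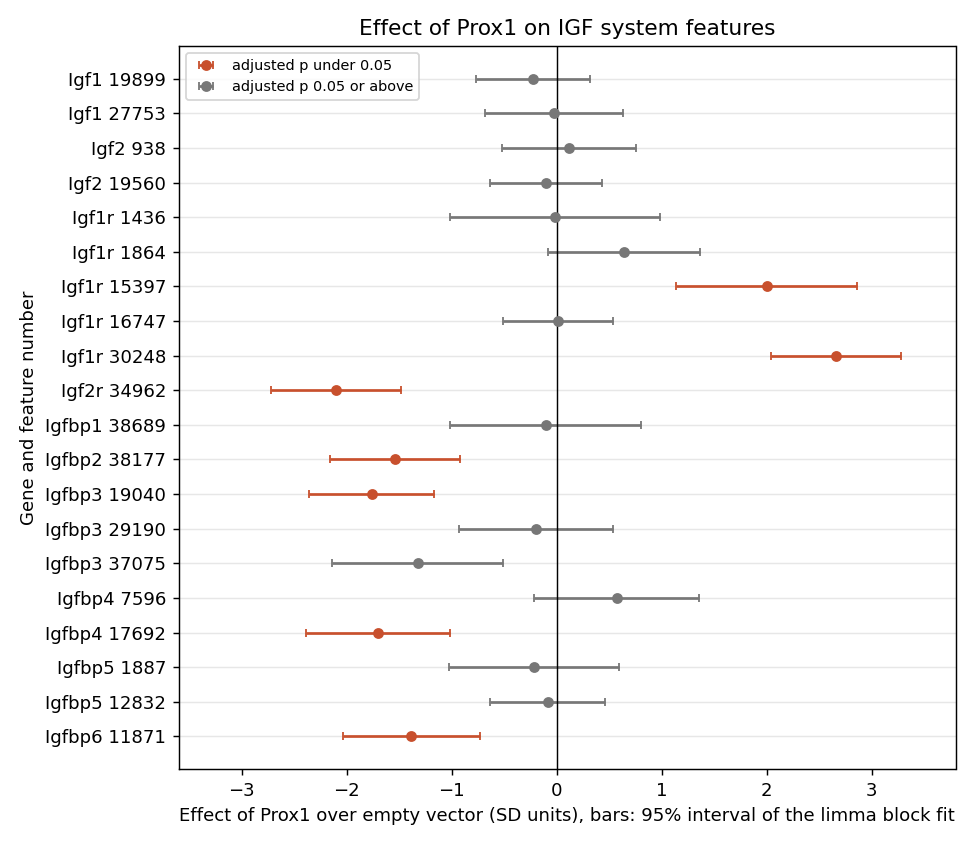
Effect of Prox1 on each IGF system feature in SD units (points) with its 95% interval (bars) from limma with the dye orientation as a random block. The 7 intervals in red belong to features with an adjusted p under 0.05 over all features: 2 of Igf1r above 0, and 1 each of Igf2r, Igfbp2, Igfbp3, Igfbp4 and Igfbp6 below 0.

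Signs were shared between both orientations in 14 of the 20 member features. The 6 with opposite signs were Igf1 27753, Igf2 938, Igf1r 1436, Igfbp1 and both of Igfbp5. Their share was 30.0%, beside 47.3% over all features and 45.4% over those with exactly 1 symbol. Because the fit averages both orientations, opposite signs pull an effect towards 0, and the shared sign of the features that passed is in part set by the fit. The difference between orientations passed in 6 member features, when 40.7% of all features passed that test. They were 2 of Igf1r and 1 each of Igf2, Igfbp2, Igfbp3 and Igfbp4. Only the 3 Cy5 arrays supply the error of that test. Among those arrays the median SD of a feature was 0.15, against an SD over features of 1.06 for the difference between orientations.

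**Figure D3:**
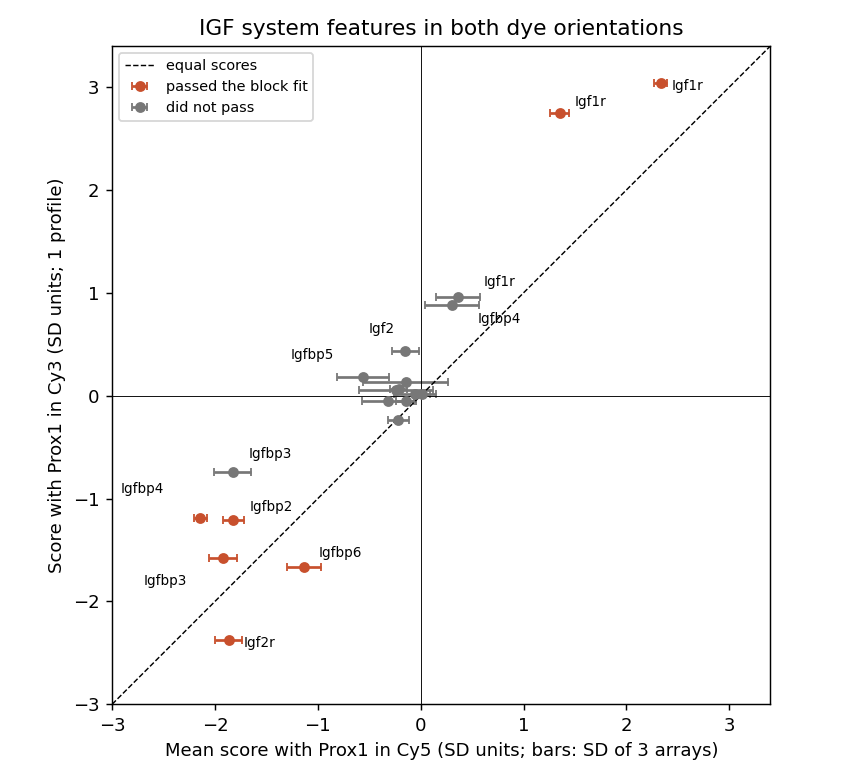
Mean score of the Cy5 arrays (horizontal axis, bars: SD of 3 arrays) against the score of the Cy3 profile (vertical axis, 1 profile) for the 20 IGF system features, both in SD units. Of the 7 features that passed, 3 lie nearest to the line of equal scores (Cy5 minus Cy3 of −0.34 for Igfbp3, 0.51 for Igf2r and 0.53 for Igfbp6).

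A model with a dye term in place of the random block called 4 member features higher and 6 lower, but it called 25.4% of all features higher and 19.7% lower. It added Igf1r feature 1864, Igfbp4 feature 7596 and Igfbp3 feature 37075. The features of Igf1r (30248), Igf2r and Igfbp3 (19040) also passed in each of the 3 fits that left out 1 Cy5 array, with limma adjusted p of at most 0.042. The other 4 (Igf1r 15397, Igfbp2, Igfbp4 17692 and Igfbp6) did not pass there. They kept their sign, which was fixed in advance because all their profiles had 1 sign.

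The related genes were taken from lists chosen with earlier results of these data known, and 64 of their 71 genes were measured. The background for each count is the 3.08% and 4.58% above. List medians lay between −0.39 SD units (growth hormone axis) and 0.24 (insulin and its receptors), against 0.04 over all features. Among 14 features of 9 genes for the ternary complex, IGFBP-like proteins and IGFBP proteases, 0 rose and 1 fell. That was Igfbp7, whose product binds IGFs only weakly, at −1.62, −1.59 and −1.72 on the Cy5 arrays and −2.15 in the Cy3 profile (effect −1.88 ± 0.24 SD units, SE; limma adjusted p = 0.0084). The serine protease gene Htra1 stood at 1.14 (limma adjusted p = 0.098). Igfals, which encodes the acid-labile subunit, was at −0.19 (limma adjusted p = 0.86).

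Insulin, its receptors and the signalling genes followed. Of 5 features of insulin and its receptors 0 passed, and the insulin receptor gene Insr had features at 1.17 (limma adjusted p = 0.11) and 0.29. Of 19 features of receptor substrates and adaptors 0 passed as well. Nearest was a feature of Ptpn1, a phosphatase of the insulin receptor, at −1.13 (limma adjusted p = 0.052). The other Ptpn1 feature stood at 0.42 and was above 0 in all profiles. At an unadjusted p under 0.05 the limma counts of these insulin and substrate lists were 1 and 3, beside 8255 of all 41230 features. With a dye term the counts were 4 and 7, in a fit that called 25.4% of all features higher and 19.7% lower. Among 37 features of 17 genes of PI3K, Akt and mTOR 1 rose and 2 fell, a share near the background, and 18 passed with a dye term. Pik3cb, a catalytic subunit of PI3K, rose in 1 of 2 features by 1.45 ± 0.22 SD units (SE; limma adjusted p = 0.016). Its other feature held a single score of −6.92 on the first Cy5 array, against 0.49 to 0.78 in the other profiles. Pdpk1, the kinase that activates Akt, fell in 1 of 3 features to −2.32 ± 0.36 (SE; limma adjusted p = 0.016), and the others stood at −1.20 and −1.05. Rheb, the GTPase that activates mTOR complex 1, had 1 feature at −1.90 ± 0.32 (SE; limma adjusted p = 0.021).

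Next to Igf2 on chromosome 7 lies H19, an imprinted noncoding RNA gene whose expression from the maternal chromosome mirrors that of Igf2 from the paternal one. H19 rose in 1 of 2 features, with scores of 1.69, 1.71 and 1.61 on the Cy5 arrays and 2.94 in the Cy3 profile (effect 2.26 ± 0.33 SD units, SE; limma adjusted p = 0.013). Its other feature scored 0.94 to 1.37 on the Cy5 arrays and −0.14 in the Cy3 profile and did not pass (effect 0.55). Hmga2, a chromatin protein gene of fetal growth, rose in 1 of 3 features (effect 1.61 ± 0.34, SE; limma adjusted p = 0.043). In that list of 18 features 2 rose and 0 fell.

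In the growth hormone axis, which controls Igf1 in the liver after birth, 0 of 14 features rose and 2 fell. Socs2, a feedback inhibitor of the growth hormone receptor, had a feature at −1.76 ± 0.24 SD units (SE; limma adjusted p = 0.010). The other Socs2 feature stood at −0.68 (limma adjusted p = 0.50) and was below 0 on the Cy5 arrays only. Ghr, the growth hormone receptor gene, had 1 of 5 features past the threshold, at −1.47 ± 0.25 (SE; limma adjusted p = 0.021). Another at −2.25 missed it (limma adjusted p = 0.052), and the remaining Ghr features stood at −0.98, −0.09 and 0.08.

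The mannose 6-phosphate pathway, through which the IGF2 receptor carries lysosomal enzymes, was read from other genes of lysosomal sorting. Of 10 features of that pathway 0 rose and 1 fell. Gnptab, which encodes a subunit of the enzyme that makes the mannose 6-phosphate tag, had that feature at −1.5 ± 0.30 SD units (SE; limma adjusted p = 0.036) but 3 others at 0.88, 1.71 and 1.45 that did not pass. M6pr, the smaller mannose 6-phosphate receptor, had 3 features between −0.27 and −0.06. Among 14 features of lysosomal hydrolases 0 rose and 1 fell. That was a feature of the heparan sulfate hydrolase gene Naglu, at −2.28 ± 0.31 (SE; limma adjusted p = 0.011), while its other feature stood at 0.09. Gusb had features at 1.62 (limma adjusted p = 0.061) and 0.12. With a dye term, which called 25.4% of all features higher and 19.7% lower, 2 of the 14 features of the ternary complex list, 12 of the 18 around Igf2, 11 of the 14 of the growth hormone axis, 5 of the 10 of the mannose 6-phosphate pathway and 7 of the 14 hydrolase features passed.

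**Figure D4:**
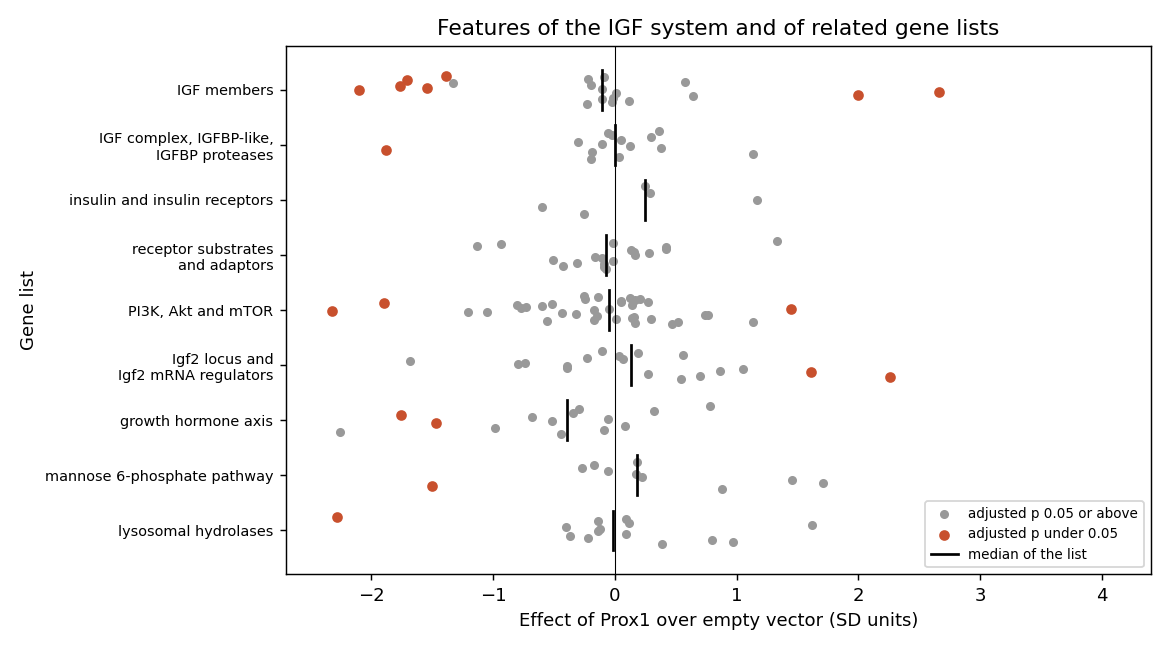
Effect of Prox1 (SD units) on each feature of the IGF system and of 8 related gene lists, with the list median as a bar and features with an adjusted p under 0.05 in red. The IGF members have 7 red points of 20 and PI3K, Akt and mTOR 3 of 37. The hepatoblast and hepatocyte markers, which are not plotted, had 6 of 16.

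Some markers of liver cells fell and others did not. Of 16 features of hepatoblast and hepatocyte markers 0 rose and 6 fell, from Alb, Hnf4a, Krt8 and Krt19. These 6 had effects between −5.17 and −3.41 SD units, while a further Hnf4a feature stood at −0.15. Afp, Dlk1, Ttr, Epcam, Met and Krt18 had none that passed. The effects of Afp (0.32), Dlk1 (0.80 and 0.03) and Met (0.62, 0.61 and 0.43) were above 0. Those of Ttr (−0.34), Epcam (−0.79) and Krt18 (−2.32) were below 0. In 5 of the 16 features the orientations disagreed in sign. Among these were Afp (0.68 to 0.88 on the Cy5 arrays, −0.17 in the Cy3 profile) and Ttr (0.17 to 0.44, −1.03). The Dlk1 feature at 0.80 was another (2.13 to 2.34, −0.88). Krt18 scored −0.93 to −0.67 on the Cy5 arrays and −4.13 in the Cy3 profile. With a dye term 5 of the 16 were higher and 9 lower, beside 25.4% and 19.7% of all features. Of 17 features of stellate cell and fibroblast markers 0 rose and 1 fell, the smooth muscle actin gene Acta2 at −2.10 (1 of its 5 features), and Des stood at −1.30. None of the 11 endothelial or 7 macrophage features passed in this limma fit or had an unadjusted p under 0.05, and 1 of each passed with a dye term. Their effects lay between −0.31 and 0.26 and between −0.47 and 0.30. Nearest to the threshold were the endothelial cadherin gene Cdh5 at −0.31 (limma adjusted p = 0.60) and the leukocyte gene Ptprc at 0.30 (limma adjusted p = 0.77). The part of these shifts in the results for the IGF system was not tested.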

How the data were processed

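Per the labels' protocols, total RNA was purified on columns, or with Trizol for replicate 4, then reverse transcribed, amplified by PCR below saturation and coupled to Cy3 or Cy5. Amplification can compress or distort ratios. The authors deposited 1 score per feature and array, a signed log-like ratio with an SD of 1 in every column. The log base, the background correction, the normalization and the genome build are each not given in the sources used here. Features were named from the platform annotation, updated by gene identifier through a RefSeq table.

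Scores were used as deposited. Every feature entered limma 3.58.1 (R 4.3.3) with an intercept over the 4 distinct profiles and the dye orientation as a random block (consensus correlation 0.796 by duplicateCorrelation), with empirical Bayes moderation, Benjamini-Hochberg adjustment over 41230 features and a threshold of 0.05. The block was chosen because a dye term takes its whole error from the 3 arrays with Prox1 in Cy5. Precision is limited by the number of arrays. The scripts were tested on simulated data, where limits were set only on the sign and mean bias of the effects. This does not test the error model on which the calls depend.

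The members and lists were chosen with earlier results of these data known. All member features are named. From each other list up to 4 genes are named, those passing with 1 sign in every profile first, and the smallest p of the rest where fewer than 2 passed. Igfals, Afp, Dlk1, Ttr, Epcam, Met and Krt18 are named outside that rule.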

Additional observations from a re-analysis of the deposited data

Results flagged for a closer look

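One Igf2 feature (938) differed between the dye orientations. All 3 arrays with Prox1 in Cy5 were below 0 and the profile with Prox1 in Cy3 was above 0, a difference of −0.58 SD units as Cy5 minus Cy3 (limma adjusted p = 0.048). The other feature of the same transcript differed by −0.09 (limma adjusted p = 0.71). Over all features 40.7% passed this test.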

How the results depend on the processing

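In 10 alternatives the 7 member features that passed kept their sign. Each had 1 sign in all distinct profiles, so fits that only drop or reweight profiles could not turn it. The counts of features higher and lower were 2 and 5 as reported. They were 4 higher and 6 lower with a dye term, and 1 gene higher and 4 genes lower with features averaged per gene. With neither a dye term nor a block they were 2 higher and 6 lower. That fit added Igfbp3 37075 and called 9524 of all 41230 features. With the orientations as 2 replicates they were 0 higher and 0 lower. In that limma fit 8 member features had an unadjusted p under 0.05, as had 5498 of all 41230 features. Of all features 0 passed there (smallest limma adjusted p = 0.13). Leaving out each array with Prox1 in Cy5 gave 1 higher and 2 lower in each case, where the correlation of the whole set was used because 2 arrays against 1 could not give one. Fewer profiles were fitted there, and 1455 to 1624 features passed in all, against 3160. Averaging per gene gave Igf1r 1.06, which turns the sign of its feature 1436 (−0.02 alone). The arrays with Prox1 in Cy5 alone called 10 of the 20 members, Igf1r 1864, Igfbp3 37075 and Igfbp5 1887 besides the 7, but called 23983 of all 41230 features. Centring or quantile normalization changed no member's call. A filter on dim probes was not run, since signal over background was not analysed. Of 180 effects with features kept, 8 had the opposite sign, each of a feature that did not pass. Each score already sets both RNAs of an array against each other. Arrays could not be paired between the orientations, since the columns with Prox1 in Cy3 were identical and the orientations share no replicate numbers.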
